A study of Mus musculus with 24 samples.

Results

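Potassium channel genes were followed across amygdala and hippocampus of male mice from 2 lines bred for how much they freeze in contextual fear conditioning. All probe sets whose platform annotation gives a single symbol starting with Kcn were taken, leaving out Kcne2 and the Kcnip genes. This gave 154 probe sets for 79 genes, out of 18193 genes on 45037 probe sets. Of the 79 genes, 76 encode pore-forming or auxiliary subunits and 3 are noncoding (Kcnq1ot1, Kcnmb4os1 and Kcnmb4os2). The rule for members reads gene symbols only. Where a gene had several probe sets, the one with the highest mean signal over the 24 arrays stood for it.

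Potassium channels let potassium leave the cell, which sets the resting potential, ends the action potential and limits repetitive firing. Voltage-gated channels assemble from 4 alpha subunits, often with auxiliary subunits, while other families open to calcium or sodium, to G proteins or to falling ATP, or conduct at rest as leaks. In amygdala and hippocampus their mix shapes how readily principal cells and interneurons fire, and several act in dendrites and axons where synaptic inputs are integrated.

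The low freezing line carries the number 24 and the high freezing line the number 25. Each line and tissue has 6 Affymetrix arrays of total RNA, so amygdala of the low line, amygdala of the high line, hippocampus of the low line and hippocampus of the high line make 4 groups. Both groups of a tissue come from male mice, and the labels give no treatment, age or founder strain. Each line is a single breeding line, so a difference made by selection cannot be told apart from drift. Nothing in the labels ties an array number to 1 animal in both tissues or tells whether RNA was pooled, so p-values measure the spread between these arrays, which may be technical.

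The signals had been scaled to a common trimmed mean per array, and array medians ran from 43.3 to 55.6. All values below are log2(signal + 16), called log2 signal, a scale that understates how much dim genes change. Folds are ratios of signal + 16 and understate such changes as well, most for dim genes. Signals of different probe sets are not set against each other as transcript amounts, since probes differ in how they bind. Of the 79 genes, 46 had a mean above the median of all probe sets, a log2 signal of 5.93. The other 33 lay at or below it. Kcnd2, Kcna1 and Kcnq3 had the highest means, at 10.20, 10.02 and 9.96, and Kcne1, Kcnn3 and Kcne3 the lowest, at 4.41, 4.45 and 4.60.

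The labelled tissues were checked against regional markers. All 12 hippocampal markers differed between the tissues by limma, 10 of them higher in hippocampus, while Wfs1 and Calb1 were higher in amygdala. Their summed signal was 5923 to 7437 in amygdala and 12120 to 14988 in hippocampus. Of 10 markers of striatum and central amygdala, 9 were higher in amygdala, and their summed signal was 5515 to 9869 there against 1317 to 1570 in hippocampus. Some markers of other cell types were called between the tissues too, where 30.1% of all genes passed, 17% higher in amygdala and 13.1% in hippocampus. Among 8 interneuron markers 6 were higher in amygdala and Pvalb in hippocampus (sums 9308 to 10942 against 5689 to 6697). Higher in hippocampus were 7 of 9 oligodendrocyte markers (11786 to 14393 against 13952 to 20663), 8 of 10 meningeal markers (597 to 1426 against 1490 to 2491) and 3 of 9 vascular markers (2199 to 2956 against 2936 to 3313). Of 9 microglial markers 4 were higher in amygdala (3381 to 3748 against 3107 to 3737). Of 10 astrocyte markers 3 were higher in amygdala and 5 in hippocampus (17378 to 20044 against 19850 to 22101), and of 8 thalamic and habenular markers 3 and 1 (1157 to 1827 against 829 to 1031). In such bulk tissue, fewer cells of a type and less RNA per cell cannot be told apart, and the part of tissue makeup in the channel results was not tested. Signal of the 18S rRNA 5' control was 295 to 1525 in amygdala and 3600 to 7093 in hippocampus, without overlap. The GAPDH 5'-to-3' ratio was 1.03 to 1.41 in amygdala and 1.36 to 1.45 in hippocampus. The actin 5'-to-3' ratio was 0.301 and 0.339 on arrays 7 and 8 of the high line's amygdala and 0.497 to 0.630 on the others. Without those 2 arrays 20 channel genes were higher in amygdala and 17 in hippocampus, against 21 and 18 with all arrays, and in the high line alone 14 and 13 against 18 and 15. The part of the 18S signal and of the GAPDH ratio was not tested.

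Promoter sequences are shown for 4 genes with wide tissue differences. Kcna5 and Kcna6, which flank Kcna1 on chromosome 6, were both higher in amygdala, Kcnf1 was also higher in amygdala, and Kcnab2 was higher in hippocampus. Each is the 250 bases before the RefSeq start, read 5' to 3' on the gene's strand in GRCm38.p6, all on the minus strand. They lie at chr6:126535556-126535805 (Kcna5), chr6:126740675-126740924 (Kcna6), chr12:17176889-17177138 (Kcnf1) and chr4:152477550-152477799 (Kcnab2, the first of 3 starts). Capitals mark the CCAAT box (CCAAT, or ATTGG on the other strand) and the CRE half-site (TGACG, or CGTCA).
Kcna5: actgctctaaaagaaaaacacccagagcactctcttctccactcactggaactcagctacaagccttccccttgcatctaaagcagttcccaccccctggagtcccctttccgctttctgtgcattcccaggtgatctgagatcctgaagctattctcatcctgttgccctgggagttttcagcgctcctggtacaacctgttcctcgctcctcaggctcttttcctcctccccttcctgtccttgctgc
Kcna6: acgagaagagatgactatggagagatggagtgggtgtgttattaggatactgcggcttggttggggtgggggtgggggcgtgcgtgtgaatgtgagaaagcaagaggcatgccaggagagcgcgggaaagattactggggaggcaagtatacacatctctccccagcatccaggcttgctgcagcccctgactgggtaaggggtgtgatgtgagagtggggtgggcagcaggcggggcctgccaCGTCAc
Kcnf1: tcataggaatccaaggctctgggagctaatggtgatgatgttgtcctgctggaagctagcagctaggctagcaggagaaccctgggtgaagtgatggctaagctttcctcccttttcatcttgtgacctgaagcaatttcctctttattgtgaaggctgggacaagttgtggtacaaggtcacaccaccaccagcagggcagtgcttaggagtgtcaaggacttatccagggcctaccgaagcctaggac
Kcnab2: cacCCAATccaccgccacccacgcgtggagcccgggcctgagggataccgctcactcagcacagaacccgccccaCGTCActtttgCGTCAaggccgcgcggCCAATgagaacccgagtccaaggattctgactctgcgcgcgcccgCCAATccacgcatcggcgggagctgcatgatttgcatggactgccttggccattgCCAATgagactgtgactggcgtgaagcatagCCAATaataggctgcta
The Kcnab2 window holds 5 CCAAT boxes and 2 CRE half-sites, the Kcna6 window 1 CRE half-site, and the Kcna5 and Kcnf1 windows neither. RefSeq's promoter table held 59 of the 79 genes, with 78 start sites. CCAAT occurred in 22 of these 78 windows (28.2%) against 33.8% of all 32851 windows of that length. The CRE half-site occurred in 13 (16.7%) against 17.8%. These matches describe letters, not bound sites.

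The first comparison asked how the channels differ between the tissues. Amygdala had the higher signal for 21 of the 79 genes and hippocampus for 18 (limma, 24 arrays, Benjamini-Hochberg adjusted p under 0.05 over all 45037 probe sets), and 40 did not pass. Of all 18193 genes, 30.1% passed, 17% with the higher signal in amygdala and 13.1% in hippocampus. The counts by role below are to be set against these shares. The members' share was 49.4%. Their median difference was -0.02, against 0.01 for all genes. Among the 46 brighter genes 18 were higher in amygdala and 16 in hippocampus, against 2764 and 1966 of 10971 brighter genes in all. Among the 33 dim genes the counts were 3 and 2, against 332 and 411 of 7222 dim genes in all. The arrays of the tissues did not overlap for 13 of the 79 genes (16.5%), 6 higher in amygdala and 7 in hippocampus, against 7.12% of all genes.

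**Figure D1:**
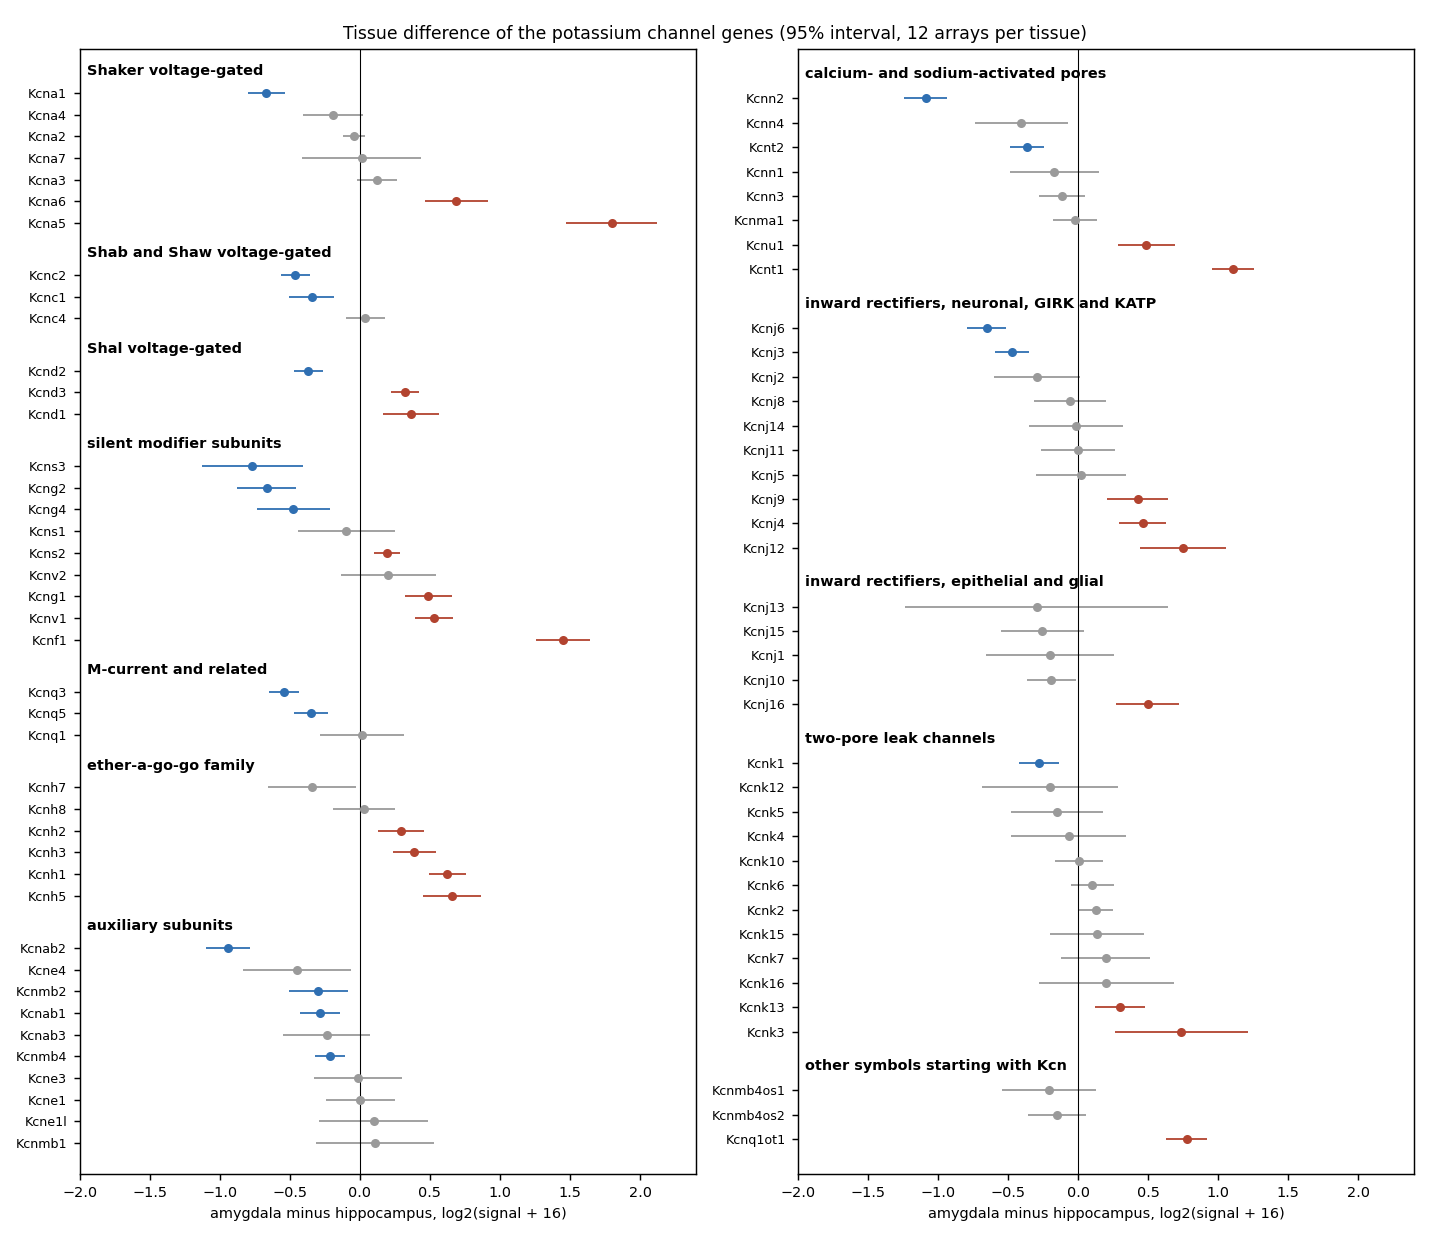
Difference between amygdala and hippocampus in log2 signal for each of the 79 genes by role, with the 95% interval over 12 arrays per tissue; red points passed the test higher in amygdala, blue higher in hippocampus, grey did not pass. Kcna5 stands farthest to the right at 1.80 and Kcnn2 farthest to the left at -1.09.

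Shaker subunits (Kcna) form fast-opening, low-threshold channels that hold back firing, many of them on axons. Of 7 genes, 2 were higher in amygdala and 1 in hippocampus. Kcna5 had a log2 signal of 6.96, 7.19 and 7.35 (lowest, median, highest of 12 arrays) in amygdala, and of 4.84, 5.22 and 6.63 in hippocampus. Every amygdala array was above every hippocampal one. The difference was 1.80 (SE 0.16), or 3.47-fold (adjusted p = 2.99e-09), from its only probe set. Kcna1, a main axonal subunit, ran the other way. Its log2 signal was 9.46, 9.65 and 10.00 in amygdala and 10.18, 10.38 and 10.43 in hippocampus, again without overlap. It was 1.59-fold higher in hippocampus, a difference of -0.67 (SE 0.06, adjusted p = 1.46e-08), and 2 of its other 3 probe sets passed in the same direction. Kcna6 was 7.72, 8.07 and 9.11 in amygdala against 6.99, 7.42 and 7.77 in hippocampus. These ranges overlapped slightly, and the difference was 0.69 (SE 0.11, 1.61-fold, adjusted p = 3.00e-05). Its other 2 probe sets, both dimmer, differed by 0.16 and -0.04 and did not pass. Kcna2, which pairs with Kcna1 in axons, differed by only -0.04, with a 95% interval of -0.12 to 0.03. Kcna4 (-0.19), Kcna3 (0.12) and Kcna7 (0.01) did not pass.

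Kcna5, Kcna1 and Kcna6 sit next to each other on chromosome 6, with no other protein-coding gene between them in the reference. The middle gene was higher in hippocampus and both flanking genes were higher in amygdala. A further 6 member pairs are direct neighbours, and in none did both genes pass. The pairs with 1 call were Kcnj9 (0.43) beside Kcnj10 (-0.19), Kcnj16 (0.50) beside Kcnj2 (-0.29) and Kcnj6 (-0.65) beside Kcnj15 (-0.26).

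**Figure D2:**
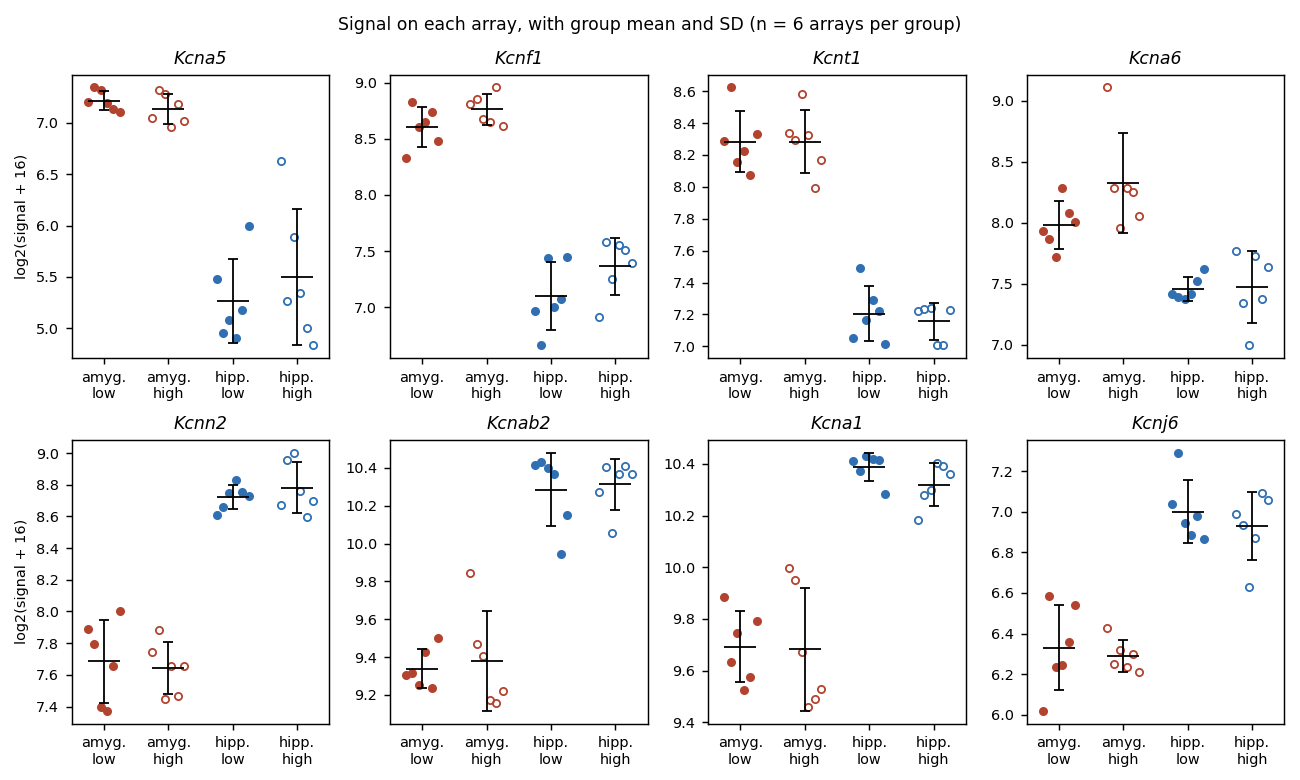
Log2 signal on each array for 8 genes, with amygdala in red, hippocampus in blue, filled points for the low line, open points for the high line, and bars for the mean and SD of 6 arrays. The tissues separate for Kcna5, Kcnf1, Kcnt1, Kcnn2, Kcnab2, Kcna1 and Kcnj6 and overlap for Kcna6, whose highest amygdala array reads 9.11.

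Shaw channels (Kcnc) switch quickly and let interneurons fire at high rates. Of the 3 genes measured in this group, Kcnc2 and Kcnc1 were higher in hippocampus. Kcnc2 was 8.68, 8.87 and 8.96 in amygdala and 9.10, 9.32 and 9.49 in hippocampus. The arrays did not overlap, and the difference was -0.46 (1.38-fold, adjusted p = 8.60e-08). Pvalb, which marks the fast-spiking interneurons known for these channels, was higher in hippocampus as well, by 1.99-fold, while Sst was 2.30-fold and Gad2 2.35-fold higher in amygdala. Whether interneuron makeup bears on the Kcnc values was not tested. Kcnc1 was uncertain: its brightest probe set was higher in hippocampus (-0.34, adjusted p = 0.00172), another higher in amygdala (0.23, adjusted p = 0.00252), and 2 did not pass, nor did their mean (-0.03, adjusted p = 0.713). Kcnc4 differed by 0.04, with an interval of -0.10 to 0.18.

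Shal subunits (Kcnd) carry the A-type current that damps signals spreading back into dendrites. All 3 genes passed, in different directions. Kcnd2, the bright dendritic subunit of hippocampal pyramidal cells, was 9.88, 9.98 and 10.30 in amygdala and 10.25, 10.39 and 10.49 in hippocampus. The tissues met only at their edges, and the difference was -0.37 (1.29-fold, adjusted p = 3.21e-06). Kcnd3 was higher in amygdala by 0.32 (1.25-fold, adjusted p = 1.66e-05), with 9.73 to 10.09 there and 9.42 to 9.74 in hippocampus. Its 3 dimmer probe sets did not pass, nor did the mean of all (0.04, adjusted p = 0.626). Kcnd1 was also higher in amygdala, by 0.36 (adjusted p = 0.00677).

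Silent subunits form no channel alone but alter Kcnb channels when they co-assemble. Of 9 genes, 4 were higher in amygdala and 3 in hippocampus. Kcnf1 was 8.33, 8.67 and 8.96 in amygdala and 6.66, 7.32 and 7.58 in hippocampus. No array overlapped, and the difference was 1.45 (SE 0.09), or 2.73-fold (adjusted p = 1.11e-11). Its second probe set gave 1.64. Kcnv1 was higher in amygdala by 0.53 (1.44-fold, adjusted p = 9.85e-07), also without overlap, and its other 2 probe sets passed the same way. Kcng1 (0.49) and Kcns2 (0.19) were higher in amygdala with overlapping arrays. Both calls rest on the brighter of 2 probe sets: the other read -0.27 for Kcng1 and -0.14 for Kcns2, and the means of both, 0.11 (adjusted p = 0.385) and 0.03 (adjusted p = 0.752), did not pass. Higher in hippocampus were Kcns3 by 1.70-fold (-0.77), Kcng2 by 1.59-fold (-0.67) and Kcng4 by 1.39-fold (-0.48). Arrays of the tissues overlapped for each, and Kcns3 and Kcng4 were dim. The second probe set of Kcns3 read -0.50 and did not pass. Kcns1 and Kcnv2 did not pass.

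Kcnq subunits form the M-current, which receptor signals close to raise excitability. Of 3 genes measured, Kcnq3 and Kcnq5 were higher in hippocampus and Kcnq1 (0.01) did not pass. Kcnq3 was 9.44, 9.68 and 9.94 in amygdala and 10.06, 10.25 and 10.38 in hippocampus. There was no overlap, and the difference was -0.54 (SE 0.05, 1.46-fold, adjusted p = 1.40e-08). The second probe set of Kcnq3 read -0.01 and did not pass. Kcnq5 differed by -0.35 (1.28-fold, adjusted p = 5.46e-05), and its second probe set by -0.51. The dimmest read 0.32, and the mean of all 3 did not pass (-0.18, adjusted p = 0.365).

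The ether-a-go-go family (Kcnh), slowly gated voltage-dependent channels, had 4 of 6 genes higher in amygdala, against 17% of all genes. Kcnh7 and Kcnh8 did not pass, and the family's median difference was 0.34 against 0.01 for all genes. Kcnh1 was 8.58, 8.83 and 8.97 in amygdala and 7.97, 8.18 and 8.50 in hippocampus. The arrays did not overlap, and the difference was 0.62 (SE 0.06, 1.54-fold, adjusted p = 4.79e-08), with 0.48 in the second probe set. Kcnh5, dimmer, was higher by 0.66 (1.58-fold, adjusted p = 1.60e-05). Kcnh3 differed by 0.39 and Kcnh2, the ERG channel, by 0.29. Kcnh7 lay on the other side at -0.34, with an interval of -0.65 to -0.03 and an adjusted p of 0.107, and Kcnh8 was at 0.03.

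Auxiliary subunits alter gating and trafficking of the pores. Of 10 genes, 4 were higher in hippocampus, as were 13.1% of all genes, and the other 6 did not pass. Their median difference was -0.23, against 0.01 for all genes, and the Kcnmb2 call below was not stable. Kcnab2, a beta subunit that binds Kcna channels and aids their delivery to axons, was 9.16, 9.31 and 9.85 in amygdala and 9.95, 10.37 and 10.43 in hippocampus. The arrays did not overlap, and the difference was -0.94 (SE 0.08, 1.92-fold, adjusted p = 1.03e-09). Its second probe set gave -1.80. Kcnab1 (-0.28), Kcnmb2 (-0.30) and Kcnmb4 (-0.21), the last 2 being beta subunits of the BK channel, were also higher in hippocampus. The Kcnmb2 call (adjusted p = 0.0360) was lost without amygdala arrays 7 and 8 (-0.17, adjusted p = 0.127). It was also lost when 1 of 11 arrays was left out, namely 1, 2, 3, 7 or 8 of amygdala or 1, 2, 4, 7, 8 or 9 of hippocampus, with adjusted p-values of 0.0518 to 0.0674. The BK pore gene Kcnma1 differed by -0.02, with an interval of -0.18 to 0.14, and none of its 5 probe sets passed.

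Channels opened by calcium or sodium follow spikes and slow the next ones. Kcnu1, a relative of Kcnma1 that responds to pH instead, was grouped with them. Of these 8 genes, 2 passed in each direction. Kcnt1, the sodium-activated Slack channel, was 7.99, 8.29 and 8.62 in amygdala and 7.01, 7.22 and 7.49 in hippocampus. The arrays did not overlap, and the difference was 1.10 (SE 0.07, 2.15-fold, adjusted p = 2.21e-11). Its other probe sets gave 1.11 and 0.93. Kcnt2, the related Slick channel, was instead higher in hippocampus, with a difference of -0.37 (1.29-fold, adjusted p = 2.48e-05). Kcnn2, the SK2 channel that shapes the afterhyperpolarization and acts in dendritic spines, was 7.37, 7.66 and 8.00 in amygdala and 8.60, 8.74 and 9.00 in hippocampus. No array overlapped, and the difference was -1.09 (SE 0.07, 2.13-fold, adjusted p = 4.53e-11). Kcnu1 differed by 0.49, while Kcnn1 (-0.17) and Kcnn3 (-0.12) did not pass.

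Inward rectifiers hold the membrane near rest. Among the 10 neuronal, G-protein-gated and ATP-sensitive genes, 3 were higher in amygdala and 2 in hippocampus. Of the G-protein-gated (GIRK) subunits, Kcnj6 was 6.02, 6.27 and 6.58 in amygdala and 6.63, 6.96 and 7.29 in hippocampus. Kcnj3 was 8.65, 8.88 and 9.06 against 9.12, 9.35 and 9.57. Neither overlapped: Kcnj6 was 1.57-fold (-0.65, adjusted p = 6.37e-08) and Kcnj3 1.39-fold (-0.47, adjusted p = 1.21e-06) higher in hippocampus. A further GIRK gene, Kcnj9, was higher in amygdala by 0.43 (1.34-fold, adjusted p = 0.00376), though its 3 other probe sets did not pass, nor did the mean of all (0.08, adjusted p = 0.497). The remaining GIRK gene, Kcnj5, differed by 0.02, and neither of its 2 probe sets passed. Kcnj12 (0.75, 1.68-fold) and Kcnj4 (0.46, 1.38-fold), strong rectifiers, were higher in amygdala. The ATP-sensitive pore Kcnj11 was at 0.00, with an interval of -0.27 to 0.26.

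Among 5 glial and epithelial rectifiers, only Kcnj16 passed, higher in amygdala by 0.50 (1.41-fold, adjusted p = 0.00129). Its second probe set read 0.09 and did not pass. Kcnj10, the astrocytic channel that clears potassium, differed by -0.19 (interval -0.37 to -0.01, adjusted p = 0.110). Astrocyte markers went both ways: Gfap (-1.16), Aqp4 (-0.74), Gjb6 (-0.36), Slc1a2 (-0.27) and Gja1 (-0.25) were higher in hippocampus, and Fgfr3 (0.37), Aldh1l1 (0.28) and Slc1a3 (0.12) in amygdala. Kcnj13, a rectifier of choroid plexus, varied widely within each tissue, from 4.77 to 8.39 in amygdala and from 5.78 to 8.50 in hippocampus, and differed by -0.30 (interval -1.24 to 0.64). Amygdala arrays 4 and 6 were highest for both Kcnj13 (8.34 and 8.39) and Kl, a choroid plexus gene (7.39 and 7.40). In hippocampus arrays 8 and 12 were highest for both, with Kcnj13 at 8.50 and 8.34 and Kl at 8.14 and 8.09. Ttr, another choroid plexus gene, was also highest on amygdala arrays 4 and 6. In hippocampus Ttr was instead highest on array 6 (13.95), where Kcnj13 was 7.96. The summed signal of 9 choroid plexus and ependymal markers ran from 698 to 14109 in amygdala and from 1538 to 16536 in hippocampus.

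Leak channels with paired pore domains (Kcnk) set the resting potential. Of 12 genes, 2 were higher in amygdala and 1 in hippocampus, no larger a share than the 30.1% of all genes that passed. Kcnk3, the TASK-1 channel, was dim, at 4.48, 5.83 and 6.59 in amygdala and 4.34, 4.85 and 6.10 in hippocampus. These overlapped widely, and the difference was 0.73 (SE 0.23, 1.66-fold, adjusted p = 0.0197). Its other probe sets read -0.09 and -0.14, and the mean of all 3 was 0.17 (adjusted p = 0.200). Without amygdala arrays 7 and 8 it was 0.58 (adjusted p = 0.0798), and with the array number as a block 0.73 (adjusted p = 0.0679), so the call did not hold in these settings. Kcnk13 was higher in amygdala by 0.30, with -0.10 in its second probe set and 0.10 as their mean (adjusted p = 0.286). Kcnk1, bright at 9.34 to 9.89 in amygdala and 9.57 to 10.19 in hippocampus, was higher in hippocampus by 1.21-fold (-0.28). The tissues separated in the low line (9.34 to 9.69 against 9.80 to 10.19) and overlapped widely in the high line (9.34 to 9.89 against 9.57 to 10.02). Kcnk2, the TREK-1 channel, differed by 0.13 (interval 0.01 to 0.25, adjusted p = 0.112).

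The noncoding Kcnq1ot1, an imprinted transcript antisense to Kcnq1, was 8.41, 8.87 and 9.10 in amygdala and 7.85, 8.10 and 8.25 in hippocampus. The arrays did not overlap, and the difference was 0.78 (1.71-fold, adjusted p = 6.71e-09). It is uncertain as a whole, since 2 more of its 6 probe sets passed in this direction (0.44 and 0.50), 1 in the other (-0.34), and 2 did not pass. Kcnmb4os1 and Kcnmb4os2 did not pass.

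Proteins that bind potassium channels were followed as a list of 28, of which 23 were measured. Of these, 10 were higher in amygdala, 4 in hippocampus, and 9 did not pass, while 30.1% of all genes passed. Dpp10, an auxiliary protein of Kcnd channels, was 9.74, 9.77 and 9.96 in amygdala and 7.79, 7.96 and 8.33 in hippocampus. There was no overlap, and the difference was 1.84 (SE 0.06, 3.57-fold, adjusted p = 4.45e-17). Akap5, which anchors kinases to Kcnq channels, differed by 0.71, Dlg1, a scaffold of Kcna channels, by 0.65, and Cntnap2, which clusters Kcna channels on axons, by 0.58. Snx27, which sorts GIRK channels, and Gnb5, part of a complex that speeds their closing, differed by 0.32 and 0.28. Higher in hippocampus were Abcc8, the sulfonylurea receptor of the ATP-sensitive channel (-0.73), Ank3, which anchors Kcnq channels at the axon initial segment (-0.26), Lgi1, which associates with Kcna channels (-0.26), and the scaffold Dlg4 (-0.20).

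The tissue difference was then taken in each line alone. The lines share no array, but their tests share the spread estimated from all 24. In the low line 17 genes were higher in amygdala and 14 in hippocampus, together 31, while 17.2% of all genes passed (9.51% and 7.66%). In the high line the counts were 18 and 15, together 33, while 22.1% of all genes passed (12.5% and 9.67%). Both lines called 25 genes, all in the same direction, which is 80.6% of the low line's calls and 75.8% of the high line's. Of all 79 genes, 61 had the same sign in both lines. Fitted on its own 12 arrays, a choice made after seeing the data, the low line called 27 genes (15.1% of all genes passed) and the high line 29 (18%), with 21 called in both and in the same direction. Kcna5 differed by 1.95 in the low line and 1.64 in the high line, Kcnf1 by 1.51 and 1.40. Kcnj12 differed by 0.40 (adjusted p = 0.258) in the low line and 1.09 (adjusted p = 5.10e-04) in the high line. Kcnk3 differed by 0.36 and 1.11, and Kcns3 by -0.40 and -1.14. None of these 3 differed between the lines after adjustment (adjusted p = 0.669, 0.758 and 0.692).

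**Figure D3:**
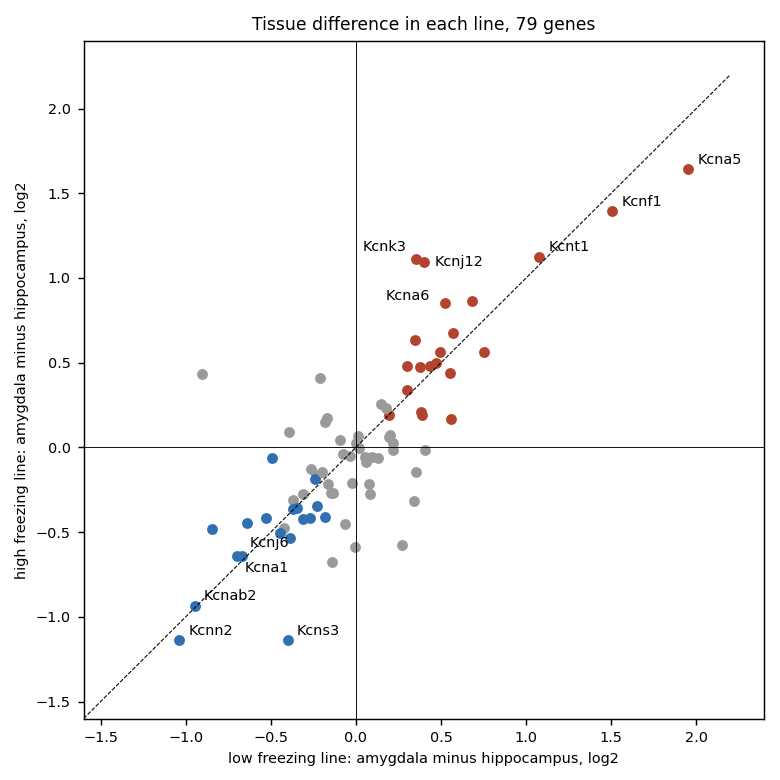
Tissue difference in log2 signal in the low line (x) against the high line (y), 1 point per gene with 6 arrays per group; red and blue points passed the test over both lines, grey did not, and the dashed line marks equal differences. Kcna5 and Kcnn2 end the diagonal, and Kcnk3, Kcnj12 and Kcns3 lie off it.

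Genes read by several probe sets gave a check within the arrays, though these share the same RNA. Of 42 such genes, 27 passed by the brightest probe set, and 15 of the 27 had another that passed the same way. Of the 54 other probe sets of these genes, 39 had the same sign and 22 passed the same way. Kcnc1 and Kcnq1ot1 alone had probe sets that passed in opposite directions. Kcnab3, Kcna4 and Kcnj15 did not pass by the brightest probe set, but each had another that was higher in hippocampus (-0.65, -0.32 and -0.33). The brighter probe sets of Kcna1, Kcnj3 and Kcnt1 moved together, while in Kcna6, Kcnd3, Kcnj9 and Kcnk3 only the brightest passed. Over all 154 probe sets, 32 were higher in amygdala and 34 in hippocampus, while 25.8% of the 45037 probe sets passed.

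**Figure D4:**
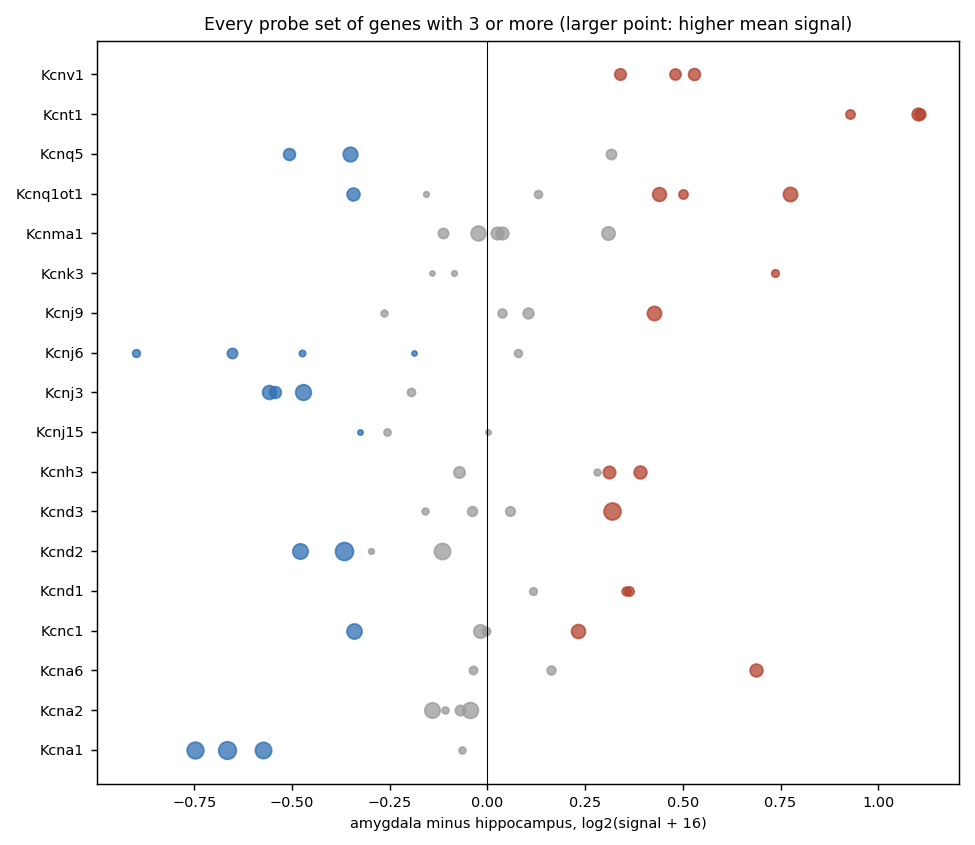
Tissue difference in log2 signal of every probe set of the genes with 3 or more probe sets, with larger points for a higher mean signal, red and blue for those that passed and grey for the rest. All 3 probe sets of Kcnt1 lie between 0.93 and 1.11, while those of Kcnc1 and Kcnq1ot1 fall on both sides of 0.

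The second comparison asked whether the lines bred for low and high freezing differ in these channels. None did by limma. In amygdala 0 of 79 genes passed (0% of all genes did), and 6 had an unadjusted p under 0.05, against 5.63% of all genes. In hippocampus 0 passed (0.0165% of all genes did), and 9 had an unadjusted p under 0.05, against 8.69% of all genes. The arrays of the lines overlapped for every member in both tissues, while 0.44% and 0.654% of all genes did not overlap. The median line difference, high minus low, was 0.01 in amygdala and 0.05 in hippocampus, against 0.01 and 0.02 for all genes. The 23 partner genes had 0 calls in either tissue as well, with 2 and 1 at an unadjusted p under 0.05.

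For most brighter genes the intervals bound how large a line difference could be. Of the 46, 41 in amygdala and 36 in hippocampus had a 95% interval wholly within 0.5 log2 units of 0, with a median half-width of 0.24 and 0.22. For the 33 dim genes, 12 and 5 did, with a median half-width of 0.44 and 0.50. Probe sets of 1 gene could differ: the brightest of Kcnq5 differed by -0.01 in amygdala and 0.01 in hippocampus, while the dimmest of its 3 differed by -0.92 and -1.07 with an SD of 1.22 and 1.02 over the arrays of each tissue.

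The lowest p-values in amygdala belonged to Kcnab3, a beta subunit (0.47), Kcng1 (0.37), Kcnc4 (0.23), Kcnmb4os2 (0.35), Kcnj9 (0.26), Kcns3 (-0.52), Kcna6 (0.34) and Kcnj11 (-0.37). By limma the lowest adjusted p was 0.606, that of Kcnab3. Kcng1 was 7.19, 7.36 and 7.84 in the low line and 7.59, 7.74 and 8.19 in the high line, and the highest value is array 7, 1 of those with a low actin ratio. In hippocampus they belonged to Kcnab3 (-0.86), Kcnk1 (-0.27), Kcnj12 (-0.42), Kcnk6 (0.30), Kcng2 (-0.41), Kcnh8 (0.41), Kcnd1 (0.34) and Kcnk13 (0.29). The lowest adjusted p was 0.372, again that of Kcnab3. Kcnk1 was 9.80, 10.01 and 10.19 in the low line and 9.57, 9.68 and 10.02 in the high line, so the groups overlapped. The hippocampi of the lines also differed in other measures. The 18S 5' control was 5859 to 7093 in the low line and 3600 to 5800 in the high line. The 12 hippocampal markers summed to 13793 to 14988 and 12120 to 13367, with 11 of the 12 lower in the high line, 6 markers at an unadjusted p under 0.05 and none past adjustment. Their part in the hippocampal line differences was not tested.

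Whether the line difference itself differed between tissues was tested in the fit of all 24 arrays, and 0 of 79 genes passed (0% of all genes did). An unadjusted p under 0.05 was found for 6, against 7.01% of all genes. Kcnab3 had the lowest (1.34, interval 0.72 to 1.95, adjusted p = 0.299 by limma), followed by Kcnk1 (0.43), Kcnk5 (-0.85) and Kcnmb4os2 (0.48). Kcnab3 was 4.42, 4.97 and 5.28 in amygdala of the low line and 5.14, 5.39 and 5.59 in amygdala of the high line. In hippocampus it was 4.98, 6.00 and 6.22 in the low line and 4.33, 4.93 and 5.42 in the high line. The order of the lines was thus opposite in the tissues, with overlap in both. This probe set is dim, at percentile 34.2 of all, and the second one of Kcnab3, about as dim, differed between lines by -0.30 in amygdala and 0.07 in hippocampus.

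**Figure D5:**
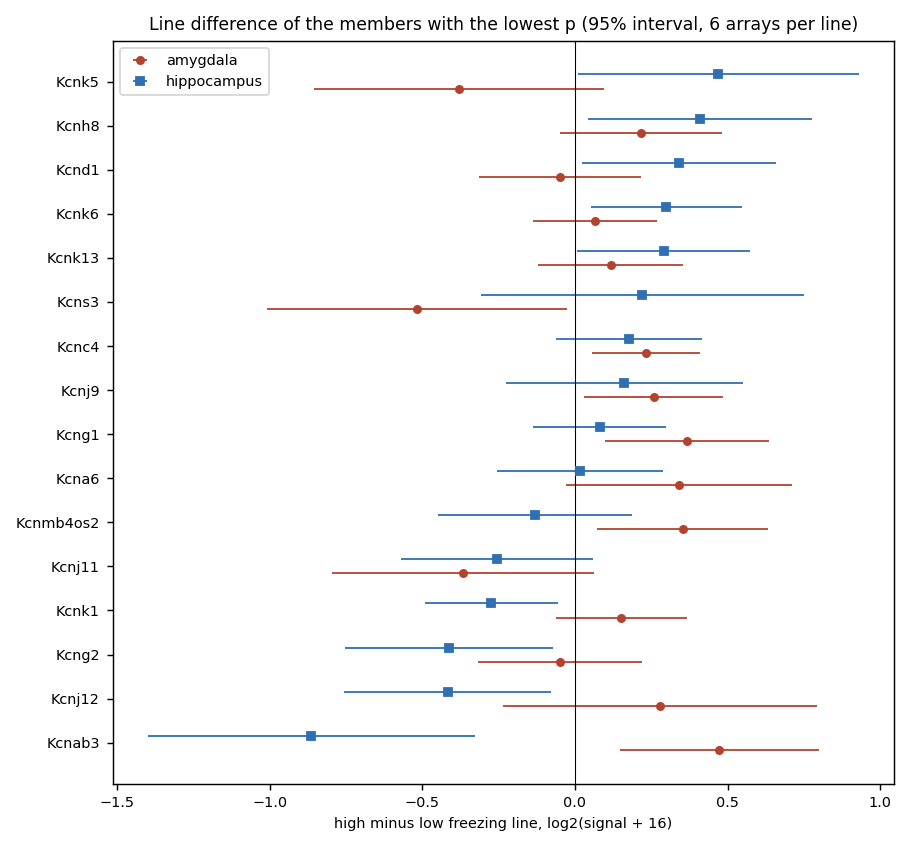
Difference between lines (high minus low) in log2 signal with its 95% interval over 6 arrays per line, for the members with the lowest p; red circles are amygdala, blue squares hippocampus. None passed after adjustment, and Kcnab3 lies at 0.47 in amygdala and -0.86 in hippocampus.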

How the data were processed

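Gene expression was measured on 24 Affymetrix arrays of total RNA, 6 per line and tissue. The authors deposited linear intensity values, 1 per probe set. The algorithm behind them, like its software and any genome build, is not given in the sources used here. In the file, each array's mean without the highest and lowest 2% of probe sets is 150. Of 45101 probe sets, 64 controls were left out. Platform annotation gave 34945 probe sets 1 symbol, 932 several and 9160 none. All 79 member genes were matched to the GRCm38.p6 reference table by Entrez identifier, used for names and neighbours only. No value column was left unmapped.

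Values were tested as log2(value + 16) with limma 3.58.1 (lmFit, eBayes) in R 4.3.3. Line differences were fitted on the 12 arrays of a tissue, and tissue differences, and how the line effect differs by tissue, as contrasts of 4 group means over 24 arrays. Benjamini-Hochberg adjustment ran over all probe sets, with a threshold of 0.05. Sample descriptions gave the groups, and titles gave the array numbers. The scripts were tested on simulated data. An array gives no molecule count, so the number of arrays limits the precision. The members, the gene lists and the tests were chosen with earlier results of these data known. Genes were named by rule: up to 12 called genes per direction between tissues, the 8 of lowest p per line comparison, the 4 of lowest p for the difference between tissues, the 10 brightest and 3 dimmest members, up to 3 further members per role group by mean signal, members whose probe sets disagree, and up to 6 partner genes per direction. Alternatives covered the pseudocount, a filter on dim probe sets, the scaling, an intensity trend, the mean of all probe sets of a gene, the arrays left out, a fit over both tissues, a fit of each line on its own arrays (added after seeing the data) and a block for the array number.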

Additional observations from a re-analysis of the deposited data

Results flagged for a closer look

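Among 48 named members, 192 groups of 6 arrays were searched for a single array far from the others, which chance gives in about 5% of groups. It was found in 6, which is fewer than that share, so these values are no more than chance would give. Kcna6 was 9.11 in log2 signal on array 7 of the high line's amygdala, against 7.96 to 8.28 on the other 5. Kcng1 was 8.19 on the same array, against 7.59 to 7.80. That array had the lowest actin 5'-to-3' ratio, 0.301, and the part of this ratio in both values was not tested. Kcnc2 was 8.71 on array 11 of the high line's amygdala, against 8.86 to 8.95. Kcng2 was 5.82 on array 2 of the low line's amygdala, against 6.10 to 6.25, and 7.34 on array 3 of the low line's hippocampus, against 6.79 to 6.96. On that last array Kcnmb2 was 6.46, against 6.72 to 6.85.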

How the results depend on the processing

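The counts of members called stayed within 1.5 times the reported ones in every alternative run. Leaving out each array in turn gave 21 to 22 genes higher in amygdala and 17 to 19 higher in hippocampus, and the other settings 15 to 21 and 17 to 19. The lowest count, 15, came from the mean of all probe sets of a gene. That setting called 19 genes higher in hippocampus, 15 of them among the 18 reported. In the low line alone the counts were 13 to 18 and 13 to 15, and in the high line alone 12 to 18 and 13 to 18, the fit of each line on its own arrays included, which was chosen after seeing the data. The line comparisons and the difference of the line effect gave 0 members in all settings run. All 39 called genes kept their sign under quantile normalization, median centring, log2(value + 1), log2(value + 64) and the mean of all probe sets, and 39, 39, 39, 39 and 30 of them still passed. The 9 lost under the mean of all probe sets were Kcnk3 (0.17), Kcng1 (0.11), Kcnc1 (-0.03), Kcnd3 (0.04), Kcnj9 (0.08), Kcnk13 (0.10), Kcnmb2 (-0.21), Kcnq5 (-0.18) and Kcns2 (0.03). Kcnmb2 was also lost with a replicate block (-0.30, adjusted p = 0.0876). The cause was not tested.

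Arrays with the same number did not deviate together: over 12 pairs the correlations of their deviations ran from -0.05 to 0.05, and 2 of 12 amygdala arrays correlated best with their own number. With the array number as a fixed replicate block, 20 genes were higher in amygdala and 18 in hippocampus, and Kcnk3 did not pass (0.73, adjusted p = 0.0679). With it as a random block, 0 genes passed for the difference of the line effect. Dim genes limit what could be seen between lines.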
